A study of Rattus norvegicus with 23 samples.

Results

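Gap43, Basp1, Stmn4, Nrn1, Sprr1a and Cd44 are genes of the growth cone, the motile tip of a growing axon, or genes tied to axon regrowth. They were chosen by name with earlier results of these data known, as were the gene lists used below. Counts of calls set beside the share of all probes are therefore descriptions and not independent tests. Every probe that the platform annotation gives to the 6 genes was kept, which made 6 of the 4153 named genes on the array and 7 of its 5088 probes. Basp1 had 2 probes and each other gene had 1. All 7 probes had a value on all 23 arrays, so no filter on missing values removed a member.

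Long-Evans rats at postnatal days 20 to 24 had the sciatic nerve transected and survived for 4, 8, 12, 18, 24, 48, 148 or 296 h, and the L4 and L5 dorsal root ganglia (DRGs) were then taken. Each array held lesioned DRG RNA in Cy5 and intact DRG RNA in Cy3. Each time was covered by 3 arrays, except 296 h with 2, and the labels name the RNA of the other channel only as intact, without saying from which animals it came. The second array of the last group has a time label of 294 h, and was kept at 296 h by its title. The labels also call the material cultured DRG cells, and nothing in them ties an array to its own animal, so each p-value measures only the spread between these samples. In the fit used here (limma), the p-value of a single time rests on the probe's spread within times, pooled over all times. It does not rest on the spread of that time's arrays alone, which was often wider at the late times.

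A sensory neuron of the DRG sends 1 axon branch to the periphery and another to the spinal cord, and cutting the peripheral branch places the cell in a growth state. Proteins under the growth cone membrane, such as GAP-43 and BASP1 (CAP-23), bind calmodulin and act on the actin cytoskeleton, while stathmins bind tubulin and so act on the microtubules behind it. Neuritin, the product of Nrn1, is a lipid-anchored surface protein that promotes neurite growth. SPRR1A is a small proline-rich protein of the epidermal envelope that injured neurons also make in mouse, and CD44 is the cell surface receptor for the matrix sugar hyaluronan.

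Each value is a log2 ratio of lesioned over intact ganglia, so that 1 is a doubling and -1 a halving. No array exchanged the dyes, so a dye effect of a single probe would add to every value at a single time and would cancel in a difference between times if it stayed constant. On 17 full arrays the log2 ratios of 4945 to 5011 probes had a standard deviation (SD) between 0.51 and 0.91. On the other 6 arrays, called sparse, only 2063 to 4353 probes had a value and the SD lay between 1.22 and 1.61. The sparse arrays were the whole 148 h group, replicates 2 and 3 of 48 h, and replicate 2 of 296 h. The 148 h group has no full array, so its values with array class as a block rest on the difference between the classes at 48 and 296 h, and results at the late times are given with and without the sparse arrays.

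Promoter sequence from RefSeq (GRCr8) was found for 3 of the 6 genes, namely Basp1, Sprr1a and Cd44. Windows of 250 bases before to 50 bases after a start site are shown for Sprr1a and Cd44. The first had and the second lacked a match to the AP-1 motif TGANTCA, which is bound by Jun and Fos family proteins. The Cd44 window lies wholly inside the gene interval given below (chr3:109610824-109699776), so its start site is not the outer end of that interval. Sequence before that outer end was not searched. Capitals mark the matches, both strands were searched, and this palindrome reads the same on each strand apart from its middle base.
Sprr1a (GRCr8 chr2:180752576-180752875, minus strand): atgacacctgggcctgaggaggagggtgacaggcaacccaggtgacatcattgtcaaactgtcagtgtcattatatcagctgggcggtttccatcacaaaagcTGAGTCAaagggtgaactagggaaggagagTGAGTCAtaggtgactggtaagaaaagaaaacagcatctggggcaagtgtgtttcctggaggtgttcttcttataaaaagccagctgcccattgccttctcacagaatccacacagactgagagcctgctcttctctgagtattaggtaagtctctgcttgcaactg
Cd44 (GRCr8 chr3:109699375-109699674, minus strand): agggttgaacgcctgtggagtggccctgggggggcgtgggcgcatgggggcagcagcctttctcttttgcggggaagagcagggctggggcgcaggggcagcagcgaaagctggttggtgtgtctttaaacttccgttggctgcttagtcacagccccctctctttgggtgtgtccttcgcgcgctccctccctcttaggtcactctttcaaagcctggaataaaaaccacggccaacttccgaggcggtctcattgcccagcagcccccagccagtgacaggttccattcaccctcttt
The Sprr1a window held 2 copies, both spelled TGAGTCA, at -147 to -141 and at -117 to -111 from the gene start. The Cd44 and Basp1 windows held none. Of 33469 rat promoter windows of this length, 7.33% held at least 1 match and 0.42% held 2 or more. None of the 3 windows held the cAMP response element TGACGTCA, found in 1.83% of all windows, and neither motif overlapped the other. A match is a description of the letters and was not tested as a binding site.

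The members went different ways. Between the late arrays (48, 148 and 296 h, 8 arrays) and the early arrays (4, 8 and 12 h, 9 arrays), Stmn4, Cd44, Gap43 and 1 of the Basp1 probes rose, Nrn1 fell, and Sprr1a and the other Basp1 probe did not pass the test. In this difference, 4 of the 7 probes were higher and 1 was lower past an adjusted p of 0.05 by limma, against 7.04% and 4.25% of all 2331 probes tested and 11.3% in either direction. The median of all tested probes was 0.04. Counted from the highest of these probes, Stmn4 had rank 3, Cd44 rank 31 and Gap43 rank 57.

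**Figure D1:**
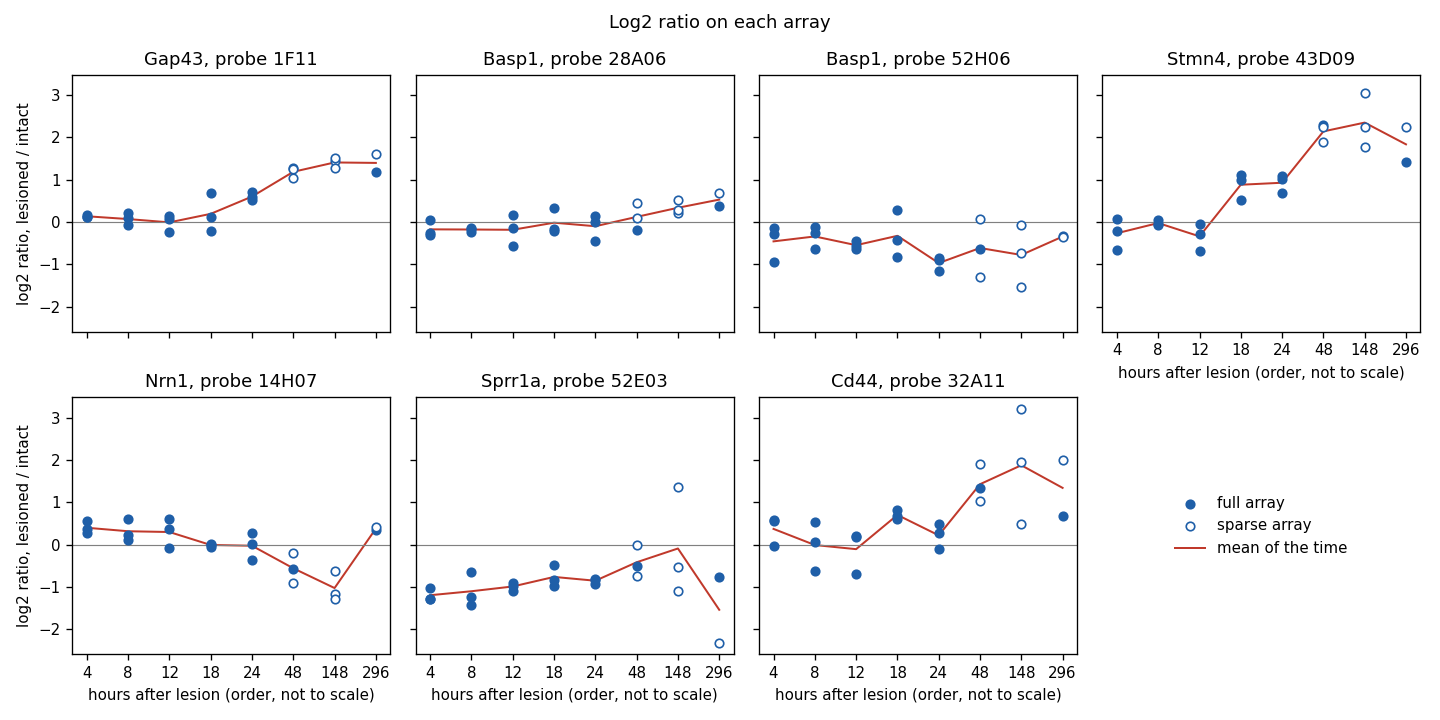
Log2 ratio of lesioned over intact ganglia (vertical axis) at each time in hours after the lesion (horizontal axis, in order and not to scale) for the 7 probes. Each point is 1 array, filled for the 17 full and open for the 6 sparse arrays, and the line joins the means; Stmn4 and Gap43 sit above 1 on all 8 late arrays, and Sprr1a sits below 0 on 21 of 23 arrays.

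**Figure D2:**
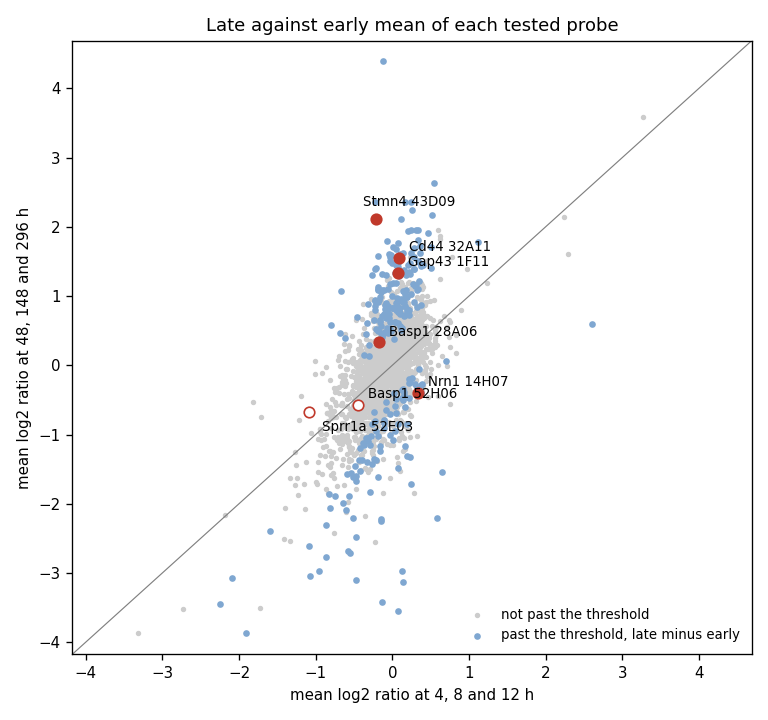
Mean log2 ratio at 48, 148 and 296 h (vertical axis) against the mean at 4, 8 and 12 h (horizontal axis) for each of the 2331 probes tested. Grey and blue points are other probes, blue where late minus early passed the threshold; red points are the members, filled where they passed it, and Stmn4 (2.11 late, -0.21 early) stands farthest above the diagonal among them.

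Gap43 encodes the growth-associated protein GAP-43 and lies at GRCr8 chr11:71882131-71975799 (probe 1F11, accession of the annotation NM_017195). At 4 h its log2 ratios were 0.13, 0.17 and 0.11, at 8 h -0.08, 0.21 and 0.09, at 12 h -0.24, 0.15 and 0.07, and at 18 h 0.13, 0.68 and -0.22. At 24 h they were 0.59, 0.52 and 0.70, at 48 h 1.28, 1.25 and 1.04, at 148 h 1.45, 1.504 and 1.27, and at 296 h 1.19 and 1.61. All 8 late arrays lay above 1 and all 9 early arrays at or below 0.21, with no overlap. The array-to-array spread was small for these values, at an SD of 0.13 at 48 h and 0.12 at 148 h.

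Gap43 was 2.28-fold higher in lesioned than in intact ganglia at 48 h (log2 1.19 ± 0.13, SD, n = 3, limma adjusted p = 9.15e-05). It was 2.66-fold higher at 148 h (1.41 ± 0.12, n = 3, limma adjusted p = 6.58e-06) and 2.64-fold higher at 296 h (1.40 ± 0.30, n = 2, limma adjusted p = 0.00058). The order of the times was 148, 296 and 48 h, whose arrays overlapped, and then 24 h, whose 3 arrays all lay below them. At 24 h the value was 0.60 ± 0.10 (SD, n = 3), with a limma adjusted p of 0.0584. Late minus early was 1.26 ± 0.13 (standard error, SE; late mean 1.33, early mean 0.07), with an adjusted p of 1.08e-05. The call at 296 h, and that of Stmn4 at the same time, was lost with array weights and without the sparse replicate 2. With array class as a block the 148 h values were 1.31 for Gap43 (adjusted p = 0.0177) and 2.13 for Stmn4 (adjusted p = 0.00777). In bulk ganglia such as these, more RNA per cell and more cells of the type that makes it cannot be told apart.

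Stmn4 encodes a neuronal stathmin, also called RB3, which sequesters tubulin dimers, and lies at GRCr8 chr15:44716825-44734776 (probe 43D09, annotation AF026530). Its log2 ratios were -0.20, -0.65 and 0.07 at 4 h, -0.04, 0.05 and -0.08 at 8 h, and -0.69, -0.27 and -0.05 at 12 h. They were 0.53, 1.003 and 1.12 at 18 h, and 1.09, 1.01 and 0.68 at 24 h. At 48 h they were 2.29, 2.24 and 1.90, at 148 h 3.04, 1.77 and 2.25, and at 296 h 1.42 and 2.25. The times fell into 3 levels that did not overlap, with 4, 8 and 12 h lowest, 18 and 24 h between, and 48, 148 and 296 h highest.

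Stmn4 had 4.42-fold higher RNA in lesioned than in intact ganglia at 48 h (log2 2.14 ± 0.22, SD, n = 3, limma adjusted p = 6.31e-06). The fold was 5.10 at 148 h (2.35 ± 0.64, n = 3, limma adjusted p = 1.44e-06) and 3.57 at 296 h (1.84 ± 0.59, n = 2, limma adjusted p = 0.000726). Late minus early was 2.32 ± 0.19 (SE; late mean 2.11, early mean -0.21), a 4.98-fold difference with an adjusted p of 4.55e-07. The arrays of 18 and 24 h averaged 0.91 and those of 4 and 8 h -0.14, again without overlap. That difference of 1.05 ± 0.22 (SE) had rank 23 of 4949 probes but its limma adjusted p was 0.126, at an unadjusted 0.000178, and it passed the threshold in the fits with scaling, with array weights and with the full arrays alone. No member passed in this first-day comparison, against 0.101% of all probes.

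At 24 h Stmn4 was the only member past the threshold (1.91-fold, log2 0.93 ± 0.22, SD, n = 3, limma adjusted p = 0.0441), against 1.42% of all probes. That call was lost in 13 of 23 fits that each left out 1 array. No member passed at 4, 8, 12 or 18 h, when 0.538%, 0.42%, 0.139% and 0.379% of all probes did. The 3 other stathmin genes measured were Stmn1, Stmn2 and Stmn3. Their late minus early values were 0.36 ± 0.29 for Stmn1, 0.37 ± 0.13 for Stmn2 and 0.13 ± 0.15 for Stmn3 (SE), with limma adjusted p of 0.438, 0.0736 and 0.597. The values for all 3 lay at or below 0.37, against 2.32 for Stmn4, a gap that was not tested as such.

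Cd44 lies at GRCr8 chr3:109610824-109699776 (probe 32A11, annotation NM_012924). Its log2 ratios were -0.02, 0.56 and 0.58 at 4 h, 0.06, -0.63 and 0.55 at 8 h, -0.69, 0.20 and 0.17 at 12 h, 0.82, 0.61 and 0.68 at 18 h, and 0.49, -0.09 and 0.27 at 24 h. They were 1.35, 1.04 and 1.90 at 48 h, 3.20, 0.48 and 1.94 at 148 h, and 0.68 and 2.01 at 296 h. Of the 8 late arrays 6 lay above 1, and the lowest of them, 0.48, fell within the early range of -0.69 to 0.58.

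Cd44 was 2.69-fold higher in lesioned ganglia at 48 h (log2 1.43 ± 0.44, SD, n = 3, limma adjusted p = 0.0141) and 3.67-fold higher at 148 h (1.88 ± 1.36, n = 3, limma adjusted p = 0.00106). At 296 h its value was 1.34 ± 0.94 (SD, n = 2, limma adjusted p = 0.0701). Late minus early was 1.46 ± 0.31 (SE; late mean 1.55, early mean 0.09), a 2.76-fold difference with an adjusted p of 0.00651. With the full arrays alone it was 0.93 (adjusted p = 0.182), with array class as a block 1.003 (adjusted p = 0.498), with scaling 0.85 (adjusted p = 0.0658) and without the time 148 h 1.30 (adjusted p = 0.0594). Leaving out 148 h replicate 1 gave 1.21 and leaving out replicate 2 gave 2.57 at 148 h. Array class as a block also ended both single-time calls, and scaling, array weights or leaving out 48 h replicate 3 ended that at 48 h.

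CD44 is also made by macrophages, glia and fibroblasts, and 2 macrophage markers were higher at the same times. The complement gene C1qb ranged over 0.90 to 4.08 on 7 late arrays and -0.61 to 0.63 on 9 early arrays, and the lysozyme gene Lyz2 over -0.15 to 2.26 on 7 late arrays and -1.70 to 0.02 on 9 early arrays. These 2 were the only macrophage markers with enough values for late minus early, and both rose, by 2.00 ± 0.29 and 1.74 ± 0.24 (SE), a count of 2 that was 0 with the full arrays alone. Of the other macrophage markers, Itgam had a late median of -0.26 and an early median of 0.11, and Cd53 0.74 late and 0.64 early. Ptprc had 0.20 late and 0.02 early, and Aif1 -0.11 late and -0.31 early. Cd14 lay further apart, at 1.07 late on 3 arrays and 0.05 early. So did Csf1r, at 0.98 late on 2 arrays and 0.02 early. Of 16 macrophage markers 8 were on the array. The 2 full late arrays measured all 8, with medians of 0.25 at 48 h and 0.22 at 296 h, against -0.24 to 0.22 on the 9 early arrays. The sparse late arrays with a value measured only 2 to 5 of them, with medians of 0.65 to 2.26, so the set of markers changed between the arrays. The part of macrophages in the Cd44 values was not tested.

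Basp1 encodes a growth cone protein that, like GAP-43, sits at the inner membrane and is a target of protein kinase C, and lies at GRCr8 chr2:77546628-77594297. Its 2 probes gave different time courses. Probe 28A06 (annotation D14441) read -0.30, -0.27 and 0.06 at 4 h, -0.22, -0.15 and -0.15 at 8 h, -0.57, -0.13 and 0.17 at 12 h, 0.33, -0.22 and -0.15 at 18 h, and 0.15, -0.44 and -0.0042 at 24 h. It read -0.18, 0.10 and 0.45 at 48 h, 0.52, 0.22 and 0.28 at 148 h, and 0.38 and 0.69 at 296 h. The late arrays were above 0 in 7 of 8 cases and the early arrays in 2 of 9, with overlap between them.

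Probe 52H06 (annotation NM_022300) lay below 0 on 21 of 23 arrays. It read -0.94, -0.14 and -0.28 at 4 h, -0.12, -0.26 and -0.63 at 8 h, -0.64, -0.44 and -0.55 at 12 h, -0.83, 0.29 and -0.43 at 18 h, and -0.89, -0.85 and -1.16 at 24 h. At 48 h it read -0.63, -1.29 and 0.08, at 148 h -1.53, -0.73 and -0.07, and at 296 h -0.33 and -0.35. No time stood apart from its neighbours in the order of means.

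Late minus early was 0.51 ± 0.15 (SE; late mean 0.33, early mean -0.18) for 28A06, with a limma adjusted p of 0.0361, and that probe passed at no single time. For 52H06 it was -0.13 ± 0.23 (adjusted p = 0.764), and this probe passed at 148 h alone, where it was lower in lesioned ganglia (-0.78 ± 0.73, SD, n = 3, limma adjusted p = 0.0373). The difference between the probes on the same array, 28A06 minus 52H06, averaged 0.91 ± 0.58 on the 8 late arrays and 0.27 ± 0.31 on the 9 early arrays (SD). These means differed by 0.64 (exact two-sided permutation test, p = 0.00724, 24310 arrangements), and by 0.31 on the full arrays alone (exact permutation p = 0.218). The call for 28A06 was lost with scaling, with array weights, with the full arrays alone (0.28, adjusted p = 0.72), with array class as a block and in 10 of 23 fits that left out 1 array, while that for 52H06 was lost with scaling, with array weights, with array class as a block and without 148 h replicate 1 or replicate 2.

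**Figure D3:**
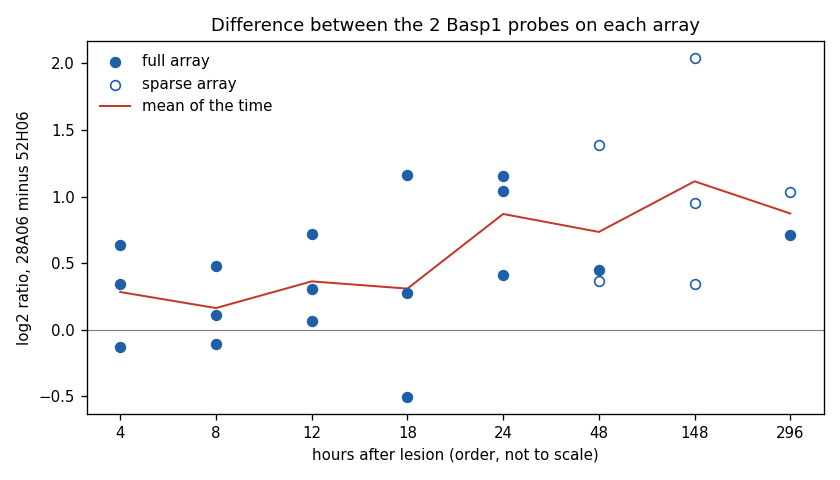
Difference between the log2 ratios of Basp1 probes 28A06 and 52H06 on each array (vertical axis) at each time in hours after the lesion (horizontal axis, in order and not to scale). Each point is 1 array, filled for full and open for sparse arrays, and the line joins the means; the late arrays average 0.91 and the early arrays 0.27, and the highest point, 2.04, is a sparse array at 148 h.

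Nrn1, the neuritin gene, lies at GRCr8 chr17:28335426-28344354 (probe 14H07, annotation U88958). Its log2 ratios were 0.56, 0.28 and 0.37 at 4 h, 0.11, 0.61 and 0.24 at 8 h, -0.07, 0.61 and 0.36 at 12 h, 0.03, -0.05 and 0.0041 at 18 h, and 0.03, -0.37 and 0.27 at 24 h. They were -0.57, -0.20 and -0.90 at 48 h, -1.15, -0.62 and -1.29 at 148 h, and 0.35 and 0.41 at 296 h. All 6 arrays of 48 and 148 h lay below 0, and both arrays of 296 h lay in the range of the early arrays.

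Nrn1 was 2.03-fold lower in lesioned than in intact ganglia at 148 h (log2 -1.02 ± 0.35, SD, n = 3, limma adjusted p = 0.000489) and lower at 48 h (-0.56 ± 0.35, n = 3, limma adjusted p = 0.0448). At 296 h it was 0.38 ± 0.05 (SD, n = 2, limma adjusted p = 0.3). Late minus early was -0.74 ± 0.15 (SE; late mean -0.40, early mean 0.34), with an adjusted p of 0.00517. Without the sparse arrays, which leaves no array at 148 h, it was -0.45 (adjusted p = 0.431), without the time 148 h it was -0.43 (adjusted p = 0.196), and with scaling (adjusted p = 0.0507) or array class as a block (adjusted p = 0.261) the call was also lost. The call at 148 h was lost with scaling, with array weights and with array class as a block, and that at 48 h with the same 3 settings, with the full arrays alone (-0.57, adjusted p = 0.247), with the replicate block (adjusted p = 0.0539) and in 12 of 23 fits that left out 1 array.

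Sprr1a lies at GRCr8 chr2:180750709-180752625 (probe 52E03, annotation L46593). The gene identifier of this probe is not in the reference table used here, and the gene was matched by its symbol. Its log2 ratios were -1.27, -1.02 and -1.28 at 4 h, -0.64, -1.43 and -1.23 at 8 h, -1.09, -0.98 and -0.89 at 12 h, -0.47, -0.83 and -0.99 at 18 h, and -0.80, -0.83 and -0.92 at 24 h. They were -0.51, 0.0035 and -0.74 at 48 h, 1.37, -0.54 and -1.10 at 148 h, and -0.76 and -2.31 at 296 h. Only 2 of 23 arrays lay above 0, both of them sparse.

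The 3 arrays of Sprr1a at 4 h had a small spread around -1.19 ± 0.15 (SD, n = 3), within the lowest 1.5% of all probes, but did not pass the threshold (limma adjusted p = 0.138). In fits with array weights, with scaling or with the full arrays alone, it was lower at 4, 8, 12, 18 and 24 h (adjusted p at 4 h 0.00718 with weights, 0.00396 with scaling and 0.00227 with the full arrays alone). At 296 h it was lower past the threshold (-1.54 ± 1.10, SD, n = 2, limma adjusted p = 0.0302), a call lost with array weights, with array class as a block and without the sparse replicate 2, which leaves -0.76 (adjusted p = 0.397 with the full arrays alone). Late minus early was 0.41 ± 0.28 (SE; late mean -0.68, early mean -1.09), with an adjusted p of 0.374, and 0.85 with scaling (adjusted p = 0.0206). A moderated F-test of equal means over the 8 times did not pass for Sprr1a (adjusted p = 0.487). No array exchanged the dyes, so a test against 0 cannot tell a lesion effect from a constant dye effect of this probe.

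Sprr1a and the lower Basp1 probe share the start of their probe numbers, 52. Over the early arrays, the 96 probes of that start had a median of -0.29 and an SD of 0.65, against a median of 0.04 and an SD of 0.35 for the 4947 other probes with a value. Of those 96 probes 5 lay below -1 and 3 above 1, against 41 and 30 of the others. Lower early medians were found for probe numbers that begin with 16 (-0.39), 36 (-0.36) and 43 (-0.32), the last of which hold Stmn4, and 8 of the 96 probes beginning with 36 lay below -1. Whether the group of probes that share the start of their number has a part in the Sprr1a and Basp1 52H06 values was not tested.

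At 48 h, 4 of the 7 probes passed the threshold, 3 higher (Gap43, Stmn4 and Cd44) and 1 lower (Nrn1), against 15.6% of all probes. At 148 h 3 were higher (the same 3 genes) and 2 lower (Nrn1 and Basp1 52H06), against 28.7%. At 296 h 2 were higher (Gap43 and Stmn4) and 1 was lower (Sprr1a), against 8.65%. A moderated F-test of equal means over the 8 times passed for 3 of the 7 probes, against 4.21% of all probes. These were Stmn4 (adjusted p = 7.89e-05), Gap43 (adjusted p = 0.000965) and Nrn1 (adjusted p = 0.0167).

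**Figure D4:**
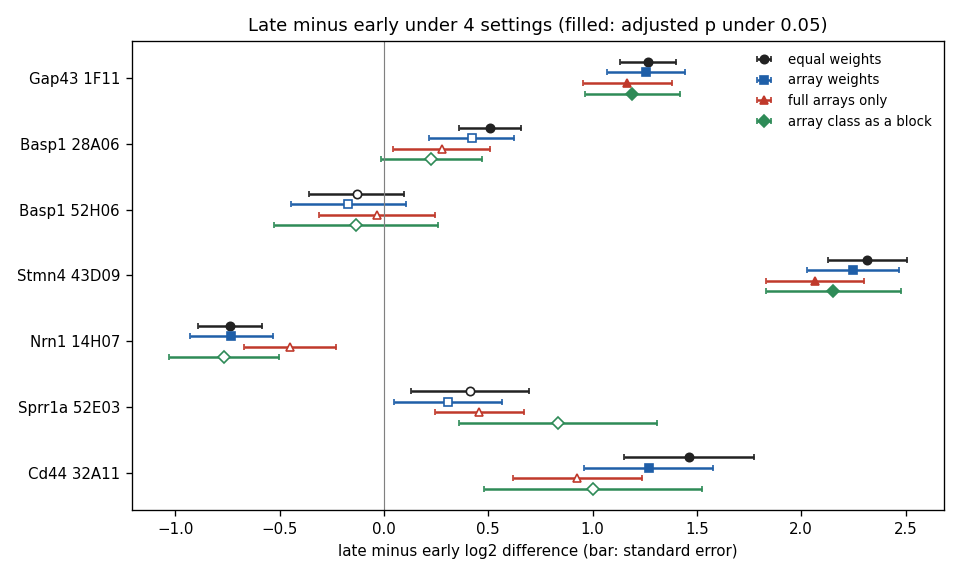
Late minus early log2 difference (horizontal axis) of the 7 probes under 4 settings, with bars of 1 standard error. Filled symbols have an adjusted p under 0.05; Gap43 and Stmn4 are filled under all 4 settings, and Cd44, Nrn1 and Basp1 28A06 are open with the full arrays alone and with array class as a block.

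Late minus early of Gap43 and Stmn4 passed the threshold in all 33 settings tried, those that left out 1 array included. Over these settings Gap43 ranged over 0.85 to 1.33 and Stmn4 over 1.67 to 2.46. With the full arrays alone, where 1 array at 48 h and 1 at 296 h remained, Gap43 read 1.28 and 1.19 and Stmn4 2.29 and 1.42.

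Other genes of the growth cone membrane and its actin skeleton were counted in the same difference. Of 22 genes listed, 13 were on the array and 10 probes of 9 genes were tested in late minus early, with a median of 0.23. Of these probes 3 were higher and 0 lower, against the 7.04% and 4.25% of all probes. Pfn1, an actin monomer binding profilin, rose by 1.41 ± 0.39, Arpc1b, of the Arp2/3 complex that branches actin, by 1.38 ± 0.42, and the cell adhesion gene Ncam1 by 0.83 ± 0.21 on probe 32H02 (SE). The other Ncam1 probe, 52C11, read 0.61 (adjusted p = 0.224). The count of 3 was 0 with scaling, with the full arrays alone and without the time 148 h, and 1 to 3 when 1 array was left out.

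Among stathmins, tubulins and other microtubule proteins, 17 of 23 listed genes were on the array and 17 probes of 16 genes were tested. None was higher and 2 were lower, against 7.04% and 4.25% of all probes, and their median was 0.13. Map1b, a microtubule-associated protein of growing axons, fell by 1.12 (SE 0.30) on probe 31C10, while its probe 31C04 read 0.16. Dpysl4, of the collapsin response mediator family, fell by 0.59 (SE 0.15). The 2 lower were 0 with scaling, with array weights, with the full arrays alone and without the time 148 h, and 1 to 3 when 1 array was left out. The number higher was 3 without 48 h replicate 3 and 2 without the time 296 h.

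Of the ligands, partners and cleaving proteases of CD44, 15 of 19 genes were on the array and 8 probes were tested, with a median of 0.37. Of these probes 1 was higher and 0 lower, against 7.04% and 4.25% of all probes. It was that of serglycin (Srgn), a proteoglycan of blood cells that binds CD44, which rose by 1.14 ± 0.36 (SE, limma adjusted p = 0.0492). That call was lost in the replicate block and under several other settings.

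Other regeneration-associated genes had 31 of 37 genes on the array and 23 probes of 18 genes in the test, with a median of 0.36. Of these probes 6 were higher and 2 were lower, against 7.04% and 4.25% of all probes. The neuropeptide gene Npy rose by 4.51 ± 0.32, Reg3b, a secreted lectin, by 2.11 ± 0.58 on probe 32G07, Vgf, a neuropeptide precursor, by 1.65 ± 0.19 on probe 1D09, and the heat shock gene Hspb1 by 1.29 ± 0.12 on probe 9H02 (SE). The second Vgf probe, 52D09, read -0.64 (adjusted p = 0.312), and at 296 h it was lower (-2.05, adjusted p = 0.035) where 1D09 was higher (1.5002). The second Reg3b probe, 52G12, read 0.13 (adjusted p = 0.62) and was lower at 148 h (-0.49, adjusted p = 0.0477). The 2 lower probes were those of Adcyap1, a neuropeptide precursor, at -0.77 ± 0.15, and of the metallothionein gene Mt1 on probe 52G03 at -0.72 ± 0.12 (SE). The probes of Mt1 went different ways. Probe 22G06 was higher past the threshold at 24, 48 and 148 h (1.12, 0.91 and 0.82). Probe 52G03 was lower at 48, 148 and 296 h (-0.495, -0.96 and -1.05), and probe 52F03 was lower at 296 h (-1.075). The 6 higher were 2 with scaling and 4 without 148 h replicate 1, and the 2 lower were 5 without 296 h replicate 1 and 0 with the full arrays alone. In 18 and 24 h minus 4 and 8 h, 4 of 38 probes of this list were higher and 0 lower, against 0.101% of all probes. They were the stress gene Gadd45a (1.98 ± 0.32), the transcription factor Atf3 (1.49 ± 0.23), Reg3b on probe 52G12 (1.04 ± 0.18) and Hspb1 on probe 9H02 (0.87 ± 0.14). Reg3b on probe 52G12 was lower at 4 h (-1.13, limma adjusted p = 0.00312) and passed at neither 18 nor 24 h.

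Markers of the cell types of the ganglion were read on the same arrays. Sensory neuron markers had 20 of 21 genes on the array, and of 20 probes tested in late minus early 5 were lower and 0 higher, against 4.25% and 7.04% of all probes, with a median of -0.38. The 5 lower were 0 with scaling, and 1 with the full arrays alone and without the time 148 h. The sodium channel gene Scn10a fell by 0.99 (SE 0.18) and the peptide precursor Tac1 by 0.83 (SE 0.16). Schwann and satellite cell markers had 2 of 13 probes lower, Mbp and Prx, and fibroblast markers 2 of 8 higher, Mgp and Dcn. The part of these cell types in the members' values was not tested. With array class as a block, no probe of the growth cone, microtubule, CD44, Schwann cell and fibroblast lists passed in late minus early, and 3 other regeneration-associated probes, 1 macrophage probe and 1 sensory neuron probe did.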

How the data were processed

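The authors deposited 1 linear ratio per probe and array from 23 two-colour spotted oligonucleotide arrays, Cy5 (lesioned) and Cy3 (intact), whose direction was taken here from the dyes. How they were scanned, background-corrected and normalized is not given in the sources used here. Without intensities, signal over background could not be read, and precision is limited by how many arrays each time had. Ratios were converted to log2 with no offset. A mean per time was fitted over all 23 arrays with limma 3.58.1 (R 4.3.3), with moderated variance and two-sided tests. P-values were adjusted by Benjamini-Hochberg over all probes with at least 2 arrays at each time used, with a threshold of 0.05. The SE uses the moderated variance. The fit was tested on simulated data in which each probe had the same spread on all arrays. The wider spread of the sparse arrays was not simulated. Arrays with under 200 missing probes were called full. The annotation gave 4423 probes 1 gene symbol, 2 several and 663 none.

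The named probes were all those of the 6 genes and up to 4 past the threshold per list. For each member with an F-test call, the 5 most like it among probes with such a call were named. 1 gene that this rule names is not reported here. The members and lists were chosen with earlier results of these data known. Alternatives were median centring, scaling to an equal median absolute log2 ratio, array weights, full arrays alone, array class as a block, the replicate number as a block, other filters on missing values, a one-sample t-test at each time and leaving out each array.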

Additional observations from a re-analysis of the deposited data

Results flagged for a closer look

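The lesion effect differed among the 8 times by the moderated F-test of limma for 3 of the 7 probes. For Stmn4 the adjusted p was 7.89e-05, the fourth of 2327 probes by F, with means of 2.35 at 148 h and -0.34 at 12 h. For Gap43 it was 0.000965, with means of 1.41 at 148 h and -0.0057 at 12 h. For Nrn1 it was 0.0167, with means of -1.02 at 148 h and 0.40 at 4 h, and it was lost with scaling, with array weights, with the full arrays alone, with array class as a block and without 148 h replicate 1 or replicate 3. The F-test of Gap43 was lost with scaling (adjusted p = 0.254), with the full arrays alone (adjusted p = 0.156) and with array class as a block (adjusted p = 0.145).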

How the results depend on the processing

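Counts of probes past the threshold are given as all probes, then members. Times run 4, 8, 12, 18, 24, 48, 148 and 296 h. Scaling gave 85, 60, 108, 136, 217, 132, 210 and 67 of all probes (24, 21, 43, 51, 76, 71, 131 and 33 of them higher), late minus early 48 (35 higher) and the F-test 11. Its members were 1, 1, 1, 2, 3, 2 and 3 at 4 to 148 h, 3 in late minus early, 1 in 18 and 24 h minus 4 and 8 h (the first-day difference), and 1 by F. Array weights gave 93, 63, 181, 104, 310, 177, 279 and 3, late minus early 116, the first-day difference 8 and F 19, with members 1, 1, 1, 2, 4, 2, 3 and 0, and 1 in the first-day difference. Full arrays alone gave 125, 48, 22, 61 and 241 at 4 to 24 h, 13 for 296 h, 92 for late minus early and 51 by F, with members 1, 1, 1, 2, 4 and 0, then 2, 1 in the first-day difference and 1 by F, and 0.31 for the Basp1 probe difference. No array is left at 148 h there. Array class as a block gave 247, 205 and 24 at 48, 148 and 296 h, 17 in late minus early and 26 by F, with members 2, 2, 2 in late minus early and 1 by F. Probes present on all arrays gave 17, 121, 309 and 504 at 12, 24, 48 and 148 h, 164 in late minus early and 55 by F, with 3 members at 24 h and 1 in the first-day difference. With 1 array at each time sufficing, 163 passed at 296 h and 195 by F. Without the time 148 h, chosen after seeing the data, 67 probes and 2 members passed late minus early, and without 296 h 453 probes.

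The labels' replicate numbers did not pair the arrays. For this, each time's mean was first subtracted, and these deviations were correlated between arrays of different times. Same-numbered arrays gave -0.14 to 0.12 and differently numbered arrays -0.14 to 0.20. On this measure 7 of 23 arrays were closest to their own number. The replicate block gave 0 members at 24 h, 3 probes in the first-day difference and 60 by F. The methods' t-test called 0 probes and 0 members at every time after adjustment. Unadjusted, it gave 438, 441, 528, 394, 567, 381, 417 and 168 probes.

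Leaving out 1 array gave 19 to 35, 3 to 25, 4 to 9, 8 to 23, 13 to 121, 443 to 768, 567 to 1016 and 5 to 573 of all probes, 132 to 459 in late minus early, 0 to 6 in the first-day difference and 46 to 292 by F. Members were 0 to 1, 0 to 1, 0 to 0, 0 to 0, 0 to 2, 3 to 4, 4 to 5 and 0 to 4, with 4 to 5 in late minus early, 0 to 1 in the first-day difference and 2 to 4 by F, and 0.48 to 0.72 for the Basp1 probe difference. The cause of these changes was not tested. No member value changed sign where it was called, and under the settings other than leaving out 1 array 592 member values stayed on their side of the threshold, 57 were lost from the calls and 30 gained.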

Other observations

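The candidates were 92 probes of 1 named gene that passed the F-test. Those whose 8 time means were most like Gap43 were Tpp1, a lysosomal protease (Pearson r = 0.97), and Ocm, the calcium-binding oncomodulin (0.97). Next came Npy (0.95), Stmn4 (0.95) and Tspo, a mitochondrial outer membrane protein (0.90). For Stmn4 the most alike included Cd63, a tetraspanin (0.97), Gap43 (0.95), Ocm (0.95) and Tpp1 (0.94). Those most like Nrn1 were Ppargc1a (0.96), Cblb (0.96), S100a1 (0.95), Cd244l1 (0.93) and Agxt2 (0.92). Of these 5 probes 4 have numbers that begin with 36, and the Agxt2 probe, 14B05, begins with 14 like the Nrn1 probe, 14H07. The points of each correlation share the same arrays, and the candidates were chosen for changing over time.

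Between the members themselves, the 8 time means of Gap43 correlated with those of Cd44 at 0.91 and of Basp1 28A06 at 0.91. The 2 Basp1 probes correlated at 0.02 and Nrn1 with Sprr1a at -0.94. Sprr1a itself did not pass the F-test among times (adjusted p = 0.487), and its 148 h mean came from arrays at 1.37, -0.54 and -1.10.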
